A study of Mus musculus with 6 samples.

Results

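The B cell identity genes are 9 genes by which B lymphocytes are commonly recognized, and they were chosen here by gene symbol from the 55394 genes of the expression tables. Each symbol occurred once. The surface genes were Cd79a and Cd79b, the signaling chains of the B cell receptor, Ms4a1, which encodes CD20, and Cd22, an inhibitory lectin of the receptor. Ighm and Ighd encode the constant regions of the IgM and IgD heavy chains. Pax5 and Ebf1 are the transcription factors that set up and hold the B lineage, and Blk is a Src family kinase of the receptor.

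These genes were measured in group 2 innate lymphoid cells (ILC2s), tissue lymphocytes without rearranged antigen receptors, from lungs of wild type C57BL/6 neonates. Dams of the Abx group drank ampicillin, metronidazole, neomycin and vancomycin from day 10 to day 14 of gestation, and dams of the Con group did not. SMART-seq, a full-length cDNA method for few cells, was run on 3 libraries per group, each from 1000 sorted ILC2s. The sort kept live CD45+ cells that carried CD90.2 and CD25 and lacked a panel of lineage antigens, in which B220 stood for B cells. The labels do not say whether the libraries came from separate pups or pools, so p-values measure the spread between these libraries, which may be technical.

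In a B cell the IgM heavy chain pairs with a light chain, and the receptor reaches the membrane together with a dimer of CD79a and CD79b, whose tails recruit Src and Syk family kinases. CD22 recruits the phosphatase SHP-1 and dampens that signal. Ebf1 and Pax5 act on many of these genes, Cd79a among them, and naive B cells make IgM and IgD from the same primary transcript by alternative splicing. Mature naive B cells carry the products of all of these genes, and the comparison asked whether the surface genes, the heavy chain constants and the factors moved together in the Abx libraries.

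Levels are FPKM, fragments scaled to exon length and to the mapped fragments of the library, so levels of different genes can be set side by side. Total FPKM ranged from 420941 to 489262, and 7074 to 9203 genes reached 1 FPKM, fewer in each Abx library than in any Con library. The number of reads is unknown. Xist, the RNA of the inactive X chromosome, was at 3.78 to 5.09 FPKM in Con and listed at 0 in all 3 Abx libraries. The paper used both sexes, and the labels do not give that of these pups. A difference in sex between the groups therefore cannot be told apart from the antibiotic exposure. The ILC2 label was checked against 16 markers, of which 14 passed the filter on low values. Id2, Gata3, Rora and Klrg1 were well above 1 FPKM in every library, while Il1rl1, the IL-33 receptor gene, stayed between 0.01 and 2.94 FPKM and Ptgdr2 was listed at 0 throughout. Of 12 myeloid markers, 6 stayed below 1 FPKM in all libraries, Csf1r among them, while Lyz2 was at 101 to 368 FPKM.

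The fitted changes of the B cell genes went in both directions. Of the 9 genes, 6 reached 1 FPKM in at least 3 of the 6 libraries and were tested with limma on log2(FPKM + 1), together with all 8718 genes that passed this filter. None of the 6 was called, which took a change of more than 2-fold together with an adjusted p below 0.05, where 0.0574% of all genes tested were called. At an unadjusted p under 0.05, 1 of the 6 was higher in Abx (Ighm, background 4.74%) and 1 was lower (Cd22, background 6.25%). The Abx libraries lay wholly above the Con libraries for Ighm and Ms4a1 (2 of 6, background 8.49%) and wholly below them for Cd79b and Cd22 (2 of 6, background 8.73%). The fitted direction was higher for 4 of the 6 and lower for 2, and their median log2 fold change was 0.50 beside -0.06 over all genes tested. That median was 0.007 without Con library 1, 0.014 without Abx library 3, 0.98 without Abx library 1 and 1.03 without Con library 2. Cd79a, Cd79b, Ms4a1 and Ighm were detected at 1 FPKM or more in all libraries. Ighd, Pax5 and Ebf1 stayed under the filter.

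**Figure D1:**
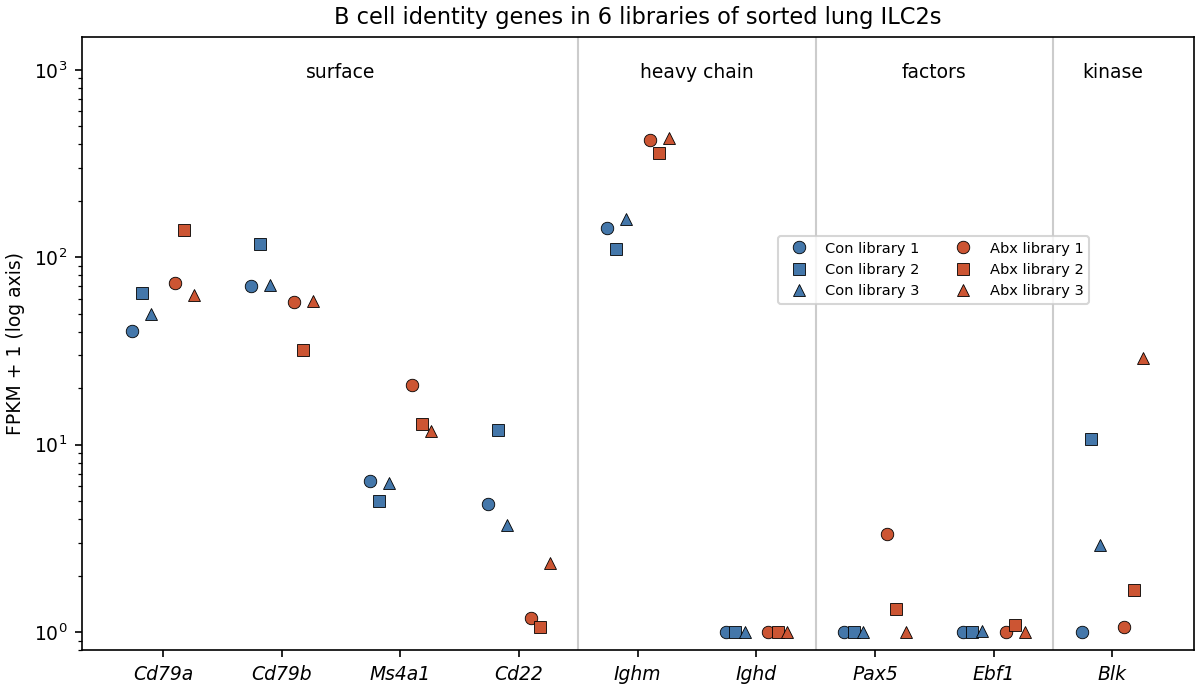
FPKM + 1 of the 9 genes (log axis) in the 3 Con libraries (blue) and the 3 Abx libraries (red), with the symbol giving the replicate number. Ighm lay highest in all libraries but Con library 2, at 109 to 159 FPKM in Con and 358 to 429 FPKM in Abx, while Ighd lay at 0 in all 6 libraries.

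Cd79a (ENSMUSG00000003379, chromosome 7, 24897381 to 24902197 of GRCm38, plus strand) encodes the chain also called Ig-alpha. In Con libraries 1, 2 and 3 its level was 39.2, 63.6 and 48.6 FPKM, and in Abx libraries 1, 2 and 3 it was 71.8, 138 and 61.5 FPKM. Abx library 2 stood highest, and the groups overlapped, since Abx library 3 lay below Con library 2. The Con mean was 50.4 ± 12.3 FPKM and the Abx mean 90.4 ± 41.4 FPKM (SD, n = 3 each). The log2 fold change was 0.77 (standard error, SE, 0.38, 95% interval -0.12 to 1.65, limma adjusted p = 0.532). Leaving out Abx library 2 lowered it to 0.42.

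The bases just upstream of Cd79a are shown because this is the textbook target of both lineage factors, and its RNA was present in every library while those of Pax5 and Ebf1 were at or near 0 in most. The stretch is RefSeq sequence of build GRCm38.p6, 134 bases at chr7:24897247-24897380 on the plus strand, and it ends at the base before the annotated gene. Capitals mark an E-box (CANNTG) and matches to the ETS core (GGAA, or TTCC on the other strand).
Cd79a: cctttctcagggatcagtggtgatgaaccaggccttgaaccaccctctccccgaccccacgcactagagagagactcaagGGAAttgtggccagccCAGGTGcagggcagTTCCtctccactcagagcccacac
RefSeq windows of 300 bases, 250 before and 50 after a start site, were given for 4 of the 9 genes (5 windows, Ebf1 having more than 1), and were searched on both strands. The EBF core CCCNNGGG was in 1 of the 5, that of Cd22, and in 13.7% of all 32851 promoter windows. The octamer ATGCAAAT was in 0 of the 5 and in 1.74% of all windows. E-boxes were in 4 of the 5 and in 72.3% of all windows, and the ETS core was in all 5 and in 31532 of the 32851 windows. A match is a run of letters and not a bound site. Only these exact letters were searched, so a window without a match, that of Cd79a included, may still hold a site.

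Cd79b (ENSMUSG00000040592, chromosome 11, 106311341 to 106314762, minus strand) encodes Ig-beta, the partner of Ig-alpha. The Con libraries measured 69.5, 117 and 69.8 FPKM, against 56.4, 31.0 and 57.4 FPKM in the Abx libraries. Every Abx library lay below every Con library, and Abx library 2, the highest for Cd79a, was the lowest for Cd79b. The Con mean of 85.3 ± 27.2 FPKM compared with 48.3 ± 15.0 FPKM in Abx (SD, n = 3 each). The log2 fold change was -0.82 (SE 0.37, 95% interval -1.67 to 0.04, limma adjusted p = 0.472). It was -0.53 without Abx library 2.

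The chains of the CD79 dimer thus stood in opposite order in the groups. In linear FPKM, Cd79a was 0.564, 0.544 and 0.696 times Cd79b in Con libraries 1, 2 and 3 and 1.27, 4.44 and 1.07 times Cd79b in Abx libraries 1, 2 and 3. Cd79b was the more abundant chain in all 3 Con libraries and Cd79a in all 3 Abx libraries. On the log2(FPKM + 1) scale the difference within a library was -0.73 ± 0.19 in Con and 0.85 ± 1.10 in Abx (SD, n = 3 each), which was 1.58 higher in Abx. An exact two-sided permutation test gave p = 0.1, the smallest p that 3 libraries against 3 allow, and p = 0.133 after adjustment over the 4 gene pairs compared. Without Abx library 2 the difference between the groups was 0.95.

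**Figure D2:**
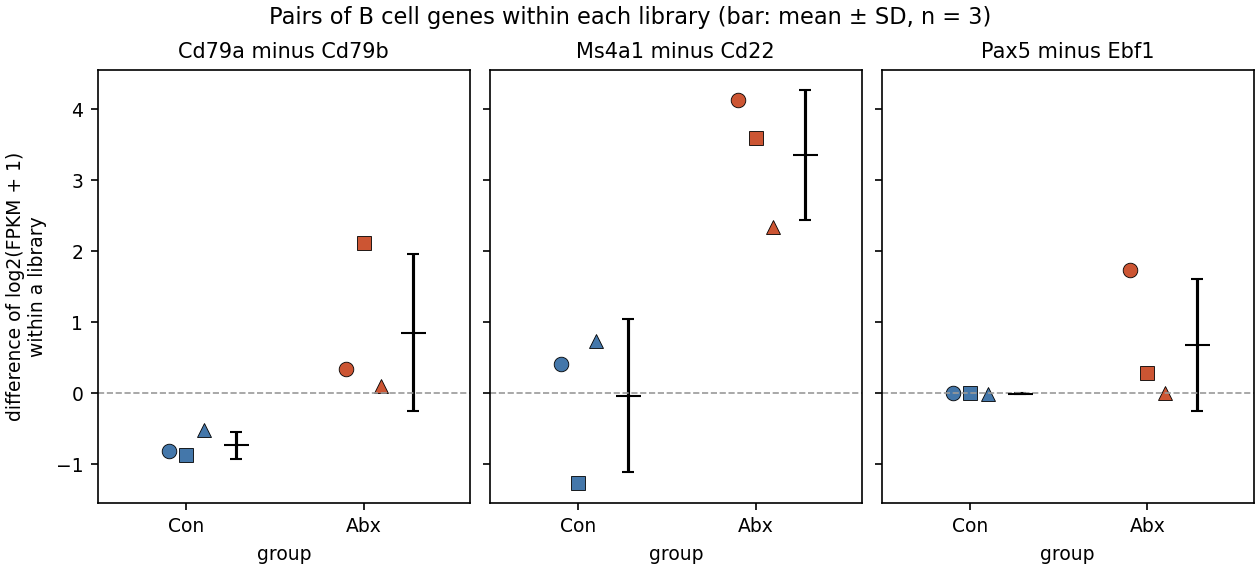
Difference of log2(FPKM + 1) between paired B cell genes within each library, for Cd79a minus Cd79b, Ms4a1 minus Cd22 and Pax5 minus Ebf1. Points are libraries (circle 1, square 2, triangle 3), and bars are the mean ± SD of 3 libraries. For Cd79a minus Cd79b all Con libraries lie below 0 and all Abx libraries above it.

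Ms4a1 (ENSMUSG00000024673, chromosome 19, 11249675 to 11266241, minus strand) encodes CD20, a membrane protein of B cells from the pre-B stage on. The Con libraries measured 5.39, 3.98 and 5.25 FPKM and the Abx libraries 19.8, 11.8 and 10.8 FPKM. All Abx libraries lay above all Con libraries. The Con mean was 4.87 ± 0.78 FPKM and the Abx mean 14.1 ± 4.91 FPKM (SD, n = 3 each), and the fitted log2 fold change was 1.33 (SE 0.60, 95% interval -0.06 to 2.71, limma adjusted p = 0.472).

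Cd22 (ENSMUSG00000030577, chromosome 7, 30865402 to 30880342, minus strand), the inhibitory lectin, lay on the other side. Its levels were 3.79, 11.0 and 2.74 FPKM in the Con libraries, but 0.19, 0.06 and 1.33 FPKM in the Abx libraries. Con library 2 was highest, Abx libraries 1 and 2 were close to 0, and the groups did not overlap. Cd22 reached 1 FPKM in all Con libraries but only in library 3 of Abx, so the group in which it was high sufficed to pass the filter. The Con mean was 5.84 ± 4.49 FPKM and the Abx mean 0.53 ± 0.70 FPKM (SD, n = 3 each). The log2 fold change was -2.06 (SE 0.70, 95% interval -3.70 to -0.43, limma adjusted p = 0.288). Its size depended on the pseudocount, and was -3.62 with 0.1 and -4.19 with 0.01 in place of 1. A library near 0 was common at such levels: of 2893 genes tested with a mean of 3 to 10 FPKM over the 6 libraries, 54.1% had at least 1 library under 0.1 FPKM, as against 2.88% of those between 30 and 100 FPKM, where Cd79a and Cd79b lie.

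Ms4a1 and Cd22, both late surface genes of the lineage, were also compared within each library. Ms4a1 was 1.42, 0.362 and 1.92 times Cd22 in Con and 104, 197 and 8.13 times Cd22 in Abx. The Abx ratios divide by Cd22 levels of 0.19, 0.06 and 1.33 FPKM, so the sizes of these ratios are not reliable. Cd22 was the higher gene in Con library 2 and Ms4a1 in the other libraries, and the lowest Abx ratio stood above the highest Con ratio. On the log2(FPKM + 1) scale the difference within a library was -0.04 ± 1.08 in Con and 3.35 ± 0.92 in Abx (SD, n = 3 each), 3.39 higher in Abx (exact two-sided permutation test, p = 0.1, the smallest possible, and 0.133 adjusted over the 4 pairs). The 3.39 became 5.09 and 5.69 with pseudocounts of 0.1 and 0.01, and Cd22 had passed the filter through the Con libraries, where it was high.

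Ighm (ENSMUSG00000076617, chromosome 12, 113418558 to 113422730, minus strand), the IgM constant gene, was the most abundant of the 9 genes in 5 of the 6 libraries. The Con libraries measured 141, 109 and 159 FPKM, and the Abx libraries 423, 358 and 429 FPKM. The groups lay well apart, and each was narrow. The Con mean was 137 ± 25.2 FPKM and the Abx mean 403 ± 39.6 FPKM (SD, n = 3 each), and limma fitted a log2 fold change of 1.57 (SE 0.22, 95% interval 1.05 to 2.08). Its limma p of 1.28e-04 placed it at rank 10 of the 8718 genes tested, and its adjusted p of 0.0911 missed the threshold. Across the alternative settings the adjusted p ranged from 0.0801 to 0.293.

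**Figure D3:**
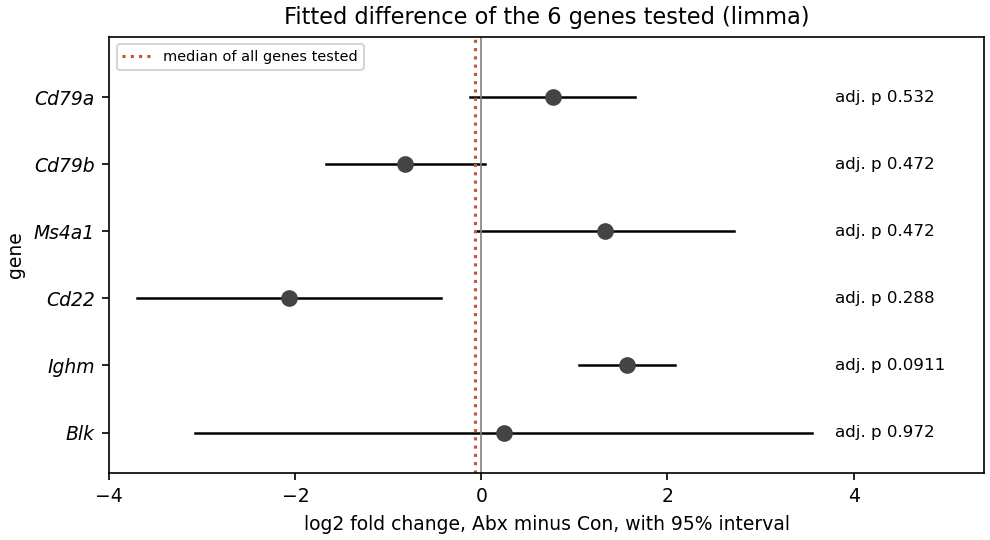
Fitted log2 fold change (Abx minus Con) of the 6 genes tested, with the 95% interval and the adjusted p from limma. The dotted line is the median of all 8718 genes tested. The intervals of Ighm (1.05 to 2.08) and Cd22 (-3.70 to -0.43) lie on opposite sides of 0. The intervals are not adjusted over the genes tested, and neither gene was called (limma adjusted p = 0.0911 and 0.288).

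Ighd (ENSMUSG00000104213, chromosome 12, 113406604 to 113416324, minus strand), which lies just downstream of Ighm in the same transcription unit, was listed at 0 in all 6 libraries. The difference between Ighm and Ighd is then Ighm alone, and 1.57 on the log2(FPKM + 1) scale (exact permutation test, p = 0.1, 0.133 adjusted over the 4 pairs). The other heavy chain constants were at 0 too, since Ighg1, Ighg2b, Ighg2c, Igha and Ighe were listed at 0 throughout and Ighg3 reached 0.02 FPKM in 1 library.

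Variable segments of the heavy chain, which a rearranged IgM transcript carries upstream of the constant exons, were sparse. Of 113 Ighv genes in the tables, 31 reached 1 FPKM in some library, 25 of them in exactly 1 library and none in more than 4. Their sum was 86.6, 40.9 and 78.3 FPKM in the Con libraries and 170, 98.3 and 142 FPKM in the Abx libraries, so each Abx library lay above each Con library. Con libraries held 8, 6 and 9 Ighv genes at 1 FPKM or more, and Abx libraries held 6, 7 and 6. Ighv1-81, the only one present in 4 libraries, was at 24.1 FPKM in Con library 3 and at 28.9, 16.3 and 16.6 FPKM in Abx. The D and J segments, 17 and 4 genes, were listed at 0 in every library. How reads were assigned to these short segments is not stated, so the zeros do not show that rearranged transcripts were absent.

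Pax5 (ENSMUSG00000014030, chromosome 4, 44524757 to 44710487, minus strand), the factor of B lineage commitment, was listed at 0 in all 3 Con libraries and at 2.33, 0.33 and 0 FPKM in Abx libraries 1, 2 and 3. It reached 1 FPKM in Abx library 1 alone. Because the Con libraries are all at 0, no fold change is given, and the difference of the mean log2(FPKM + 1) was 0.72 (exact two-sided permutation test, p = 0.4). It was 0.21 without Abx library 1, and 2.24 and 4.32 with pseudocounts of 0.1 and 0.01. Ebf1 (ENSMUSG00000057098, chromosome 11, 44617317 to 45008091, plus strand), which acts upstream of Pax5, measured 0, 0 and 0.01 FPKM across Con, against 0, 0.09 and 0 FPKM across Abx. It never reached 1 FPKM, and its difference of 0.04 had an exact permutation p of 1. Pax5 minus Ebf1 was 0.68 higher in Abx with overlapping groups (exact permutation test, p = 0.3, also 0.3 after adjustment over the 4 pairs). That value was 0.15 without Abx library 1, and 1.97 and 3.54 with pseudocounts of 0.1 and 0.01.

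Blk (ENSMUSG00000014453, chromosome 14, 63372836 to 63417037, minus strand) measured 0, 9.66 and 1.93 FPKM in the Con libraries and 0.06, 0.67 and 28.1 FPKM in the Abx libraries. Abx library 3 stood far above the rest, and the groups overlapped. The log2 fold change was 0.24 (SE 1.43, 95% interval -3.08 to 3.56, limma adjusted p = 0.972), an interval too wide to give a direction. It turned to -1.24 without Abx library 3 and to -0.59 without Con library 1.

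Transcripts annotated over the same bases were looked at for each of the 9 genes, because strand was not stated for the values. Ms4a1, Cd22, Pax5 and Ebf1 overlap antisense or small genes, 7 in all, and every one of these was listed at 0 in all 6 libraries.

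**Figure D4:**
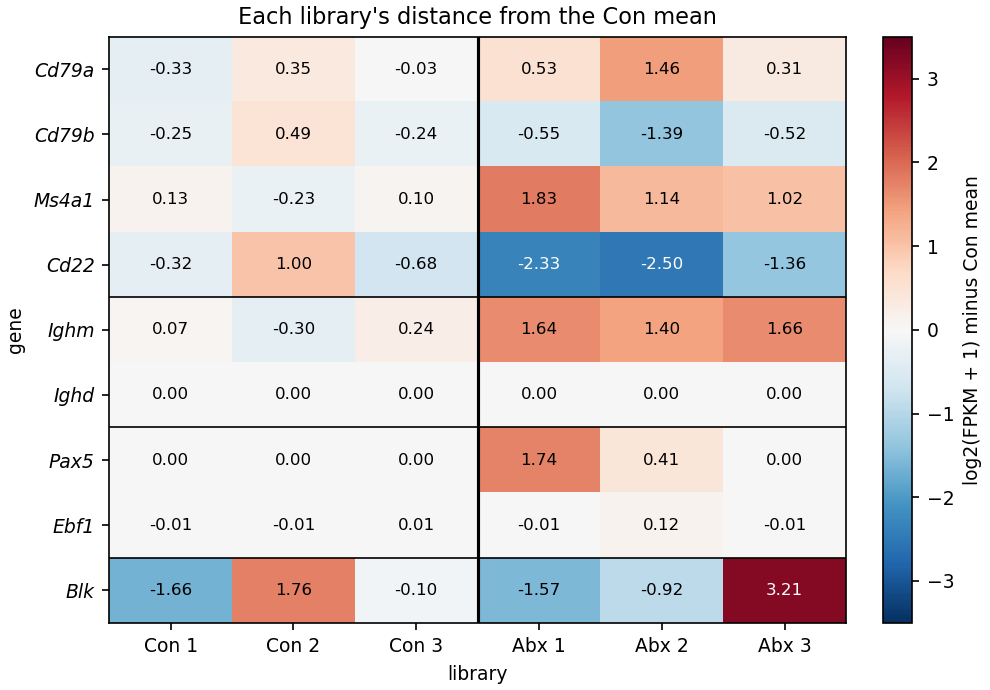
Each library's log2(FPKM + 1) minus the mean of the 3 Con libraries, for the 9 genes in the order surface genes, heavy chain constants, factors and kinase. In the Abx columns Ms4a1, Ighm and Cd79a are above the Con mean and Cd79b and Cd22 below it, in all 3 libraries.

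Set side by side by library, the genes fell on opposite sides of the Con mean within the same Abx libraries. Cd79a, Ms4a1 and Ighm were above it by 0.31 to 1.83 on the log2(FPKM + 1) scale in all 3 Abx libraries, and Cd79b and Cd22 were below it in all 3, at -2.50 to -0.52. Of the 6 genes tested, 3 were above the Con mean in Abx library 1, 3 in Abx library 2 and 4 in Abx library 3. The higher and lower values thus stood in the same libraries, and Blk had its single high Abx value in Abx library 3. Among the Con libraries, Con library 2 differed from the other two, with the highest Cd79a, Cd79b, Cd22 and Blk and the lowest Ms4a1 and Ighm of the group. Con library 2 was also the library in which Cd79b, at 117 FPKM, exceeded Ighm, at 109 FPKM.

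The summed level of the 9 genes was 259 to 315 FPKM in Con and 539 to 588 FPKM in Abx. Ighm made up 34.8% to 55.4% of the sum in Con and 66.3% to 73.8% in Abx. Because Ighm weighs so much and Cd79b and Cd22 were lower in Abx, the sum does not stand for the 9 genes as a set. In bulk libraries such as these, fewer cells of a type and less RNA per cell cannot be told apart.

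Likeness between genes was described by the root mean square difference of their log2(FPKM + 1) profiles over the 6 libraries, each centered on its own mean, where 0 is the same profile. Among the 15 pairs of the 6 genes tested, Ms4a1 and Ighm were closest (0.28), followed by Cd79a with Ms4a1 (0.63), Cd79a with Ighm (0.68) and Cd79b with Cd22 (0.74). Cd79a and Cd79b were 1.02 apart, and Ms4a1 and Blk were farthest apart (2.08).

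Over all genes tested, each of the 6 had closer neighbors outside the group than inside it. The nearest to Ighm were Anxa6 (0.13), Rnf168 (0.17) and Pafah1b3 (0.21), and to Ms4a1 Bap1 (0.13), Amz2 (0.14) and 6820431F20Rik (0.16). Cd79a lay nearest to Uqcr11 (0.15), Tomm5 (0.17) and Gm7623 (0.20), and Cd79b to Ssrp1 (0.12), Gm8399 (0.17) and Nr4a3 (0.17). Cd22 was nearest to Dnajc12 (0.31), Gtpbp6 (0.33) and Akr1c12 (0.35), and Blk to Slco4a1 (0.37), Gm2531 (0.40) and Ccdc125 (0.42). These neighbors were picked as the closest of all 8718 genes tested, over only 6 libraries. With so many genes outside the group and so few inside, closer outside neighbors are likely for any gene. They do not show whether the 6 moved together.

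Other genes of the pathway, 77 in 6 lists without the 9 members, were also measured. None of the 36 that passed the filter was called (background 0.0574%), and their median log2 fold change was -0.26. At an unadjusted p under 0.05, 3 of the 36 were higher (background 4.74%) and 1 was lower (background 6.25%). Of the 77, 11 were listed at 0 in all libraries and 22 stayed under 1 FPKM in all. Con libraries held 34, 33 and 38 of the 77 at 1 FPKM or more and Abx libraries held 27, 36 and 33, so the groups overlapped.

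Among 20 genes of B cell receptor signaling, 11 were tested, with a median log2 fold change of -0.36. Of 18 further B cell surface genes, 9 were tested, with a median of -0.41. The lineage transcription factors gave 7 tested of 15 and a median of -0.25, and the plasma cell genes 3 of 8 and a median of 0.58. No gene of these 4 lists had an unadjusted p under 0.05, where 4.74% of all genes tested were higher and 6.25% lower.

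Of 12 immunoglobulin constant genes, Ighm and Ighd included, 5 were tested, and their median log2 fold change was 1.15. Of the 5, 3 were higher at an unadjusted p under 0.05 (background 4.74%). The 3 were Ighm and the light chain constants Igkc and Iglc1. Igkc, the kappa constant gene, measured 127, 180 and 219 FPKM in the Con libraries and 261, 365 and 292 FPKM in the Abx libraries. The groups did not overlap, and the fit gave a log2 fold change of 0.82 (SE 0.26, limma adjusted p = 0.255). Iglc1, a lambda constant gene, measured 0, 15.8 and 11.1 FPKM in the Con libraries and 90.9, 59.3 and 62.1 FPKM in the Abx libraries (log2 fold change 3.59, SE 1.01, limma adjusted p = 0.189). Iglc3, another lambda gene, measured 10.8, 11.4 and 30.8 FPKM in the Con libraries and 0.47, 27.5 and 0.09 FPKM in the Abx libraries (log2 fold change -2.22, SE 1.29, limma adjusted p = 0.608), so that 4 of the 5 constants tested were fitted higher and 1 lower. The lambda constants are near copies of each other, and how reads were split between them is uncertain.

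Of 10 early stage genes, 4 were tested, with a median log2 fold change of 0.85. At an unadjusted p under 0.05, 1 was higher (background 4.74%) and 1 was lower (background 6.25%). Dntt encodes TdT, which adds bases at the joins of rearranging antigen receptor genes in both B and T cell precursors. It measured 0.03, 0.02 and 11.6 FPKM in the Con libraries and 75.9, 140 and 156 FPKM in the Abx libraries, so that the groups lay far apart (log2 fold change 5.66, SE 0.997, limma adjusted p = 0.0911). Con libraries 1 and 2 were near 0, and the Abx libraries, in which Dntt was high, sufficed to pass the filter. Kit, a receptor of early progenitors and mast cells, measured 3.30, 14.9 and 1.51 FPKM in the Con libraries and 0.02, 0.65 and 0.03 FPKM in the Abx libraries (log2 fold change -2.21, SE 0.78, limma adjusted p = 0.309). It reached 1 FPKM in the Con libraries alone and so passed the filter only through the group in which it was high. The surrogate light chain genes Vpreb2 and Igll1 were listed at 0 in all libraries, while Vpreb3, whose product binds immunoglobulin chains in precursors, measured 0, 24.1 and 0 FPKM in the Con libraries and 0, 10.5 and 23.7 FPKM in the Abx libraries.

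Markers of other lymphocytes were measured as well, and none was called (background 0.0574%). Of 14 T cell markers, 10 were tested and 3 were higher at an unadjusted p under 0.05 (background 4.74%). The Abx libraries lay wholly above the Con libraries for 5 of the 10 (background 8.49%), namely Cd3d, Cd3g, Cd8b1, Lck and Lat. They lay wholly below for 1 (background 8.73%), Zap70. The fitted direction was higher for 8 of the 10 and lower for 2, Zap70 and Trac. Trac measured 11.67, 3.01 and 10.82 FPKM in the Con libraries and 21.18, 14.05 and 0.22 FPKM in the Abx libraries. Cd4 and Cd8a stayed under the filter. Cd4 was listed above 0 in Abx library 2 alone, at 7.46 FPKM, and Cd8a reached 1 FPKM in Con library 1 alone, at 3.25 FPKM. The summed level of the 14 was 413 to 443 FPKM in Con and 693 to 967 FPKM in Abx. Of 10 NK cell and ILC1 markers, 3 were tested and 2 were higher at an unadjusted p under 0.05 (background 4.74%). Their sums were 14.9 to 82.9 FPKM in Con and 288 to 431 FPKM in Abx over the 10 markers, while the defining genes Klrb1c, Tbx21 and Prf1 were listed at 0. The 2 higher genes were Gzma (mean 8.18 FPKM in Con, 219 FPKM in Abx) and Nkg7 (mean 18.0 and 126 FPKM), whereas Gzmb had a log2 fold change of -1.79 (limma adjusted p = 0.690) and Ncr1 and Klrk1 were listed above 0 in Con libraries alone. The sum over the 16 ILC2 markers was 6112 to 7257 FPKM in Con and 3382 to 4710 FPKM in Abx. Of the 14 tested, 4 were lower at an unadjusted p under 0.05 (background 6.25%) and 6 were fitted higher (background 47.0%). Hilpda alone had a mean of 3067 FPKM in Con and 1161 FPKM in Abx, and Id2 had a mean of 880 and 1137 FPKM. The part of these cells' transcripts in the levels of the B cell genes was not tested.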

How the data were processed

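SMART-seq values of 6 libraries of 1000 sorted lung ILC2s each, 3 Abx and 3 Con, were grouped by the sample labels. Per the methods, the authors trimmed reads with Cutadapt, mapped them with HISAT2 and assembled them with StringTie, and the deposited values are FPKM per gene. The methods name a human annotation, whereas the identifiers are of mouse genes. The submitters' processing notes name Bowtie 0.12.2 and the builds mm8 and mm9. Read counts were not given and could not be recovered from the values, so no counting error is stated, and the authors' DESeq2 step was not repeated.

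The 9 genes were found by symbol, and all 9 identifiers carry the same symbol in GENCODE M21 (GRCm38), from which positions were taken. The 8718 genes that reached 1 FPKM in 3 or more of the 6 libraries were tested on log2(FPKM + 1) with limma 3.58.1 (R 4.3.3, moderated variance with trend, two-sided, Benjamini-Hochberg over all genes tested), and called where they changed more than 2-fold with an adjusted p below 0.05. Fold changes on this scale understate those of low genes. Gene pairs and genes under the filter were compared with exact two-sided permutation tests (scipy 1.17.1). The fit was tested on simulated data.

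From the other lists, genes were named when called, or when their unadjusted p was under 0.05 and the groups did not overlap, and for each gene tested the 3 nearest profiles were named. The members and lists were chosen with earlier results of these data known. Alternatives were pseudocounts of 0.1 and 0.01, quantile normalization, median centring, no filter, a mean of at least 5 FPKM, robust variance, the replicate number as a block, the unadjusted p, no limit on the fold change, and each library left out. Marker lists of erythroid, epithelial, endothelial, fibroblast, mast, neutrophil, myeloid, NK and T cells and of ILC2s were measured beside the B cell genes.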

Additional observations from a re-analysis of the deposited data

How the results depend on the processing

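None of the 6 B cell genes was called in the alternatives that kept the adjusted p, each library left out included, and 2 (Ighm and Cd22) passed with the unadjusted p in its place. Over all genes tested, 0 were called with pseudocounts of 0.1 and 0.01, with no filter and with the replicate number as a block. Leaving out a library gave 0 as well, except for 2 lower genes without Abx library 2. In the settings that called 0 genes, the count says nothing particular about the B cell genes. The median log2 fold change of the 6, 0.50, ranged from 0.007 to 1.03 when a library was left out, and rests on single libraries. With a library left out, Blk (0.24) ranged from -1.24 to 1.15 and reversed to -0.59 without Con library 1 and to -1.24 without Abx library 3, and Ebf1 (0.04) ranged from -0.005, without Abx library 2, to 0.057. Pax5 ranged from 0.21 to 1.07 and Pax5 minus Ebf1 from 0.15 to 1.02, both lowest without Abx library 1. Ighm, Ms4a1, Cd79a, Cd79b, Cd22 and the Cd79a to Cd79b and Ms4a1 to Cd22 differences kept their direction in every alternative that gave a value. Cd22, under a mean of 5 FPKM, had no value with the stricter filter. The Ms4a1 to Cd22 difference was 5.09 and 5.69 with pseudocounts of 0.1 and 0.01, and quantile normalization brought Cd22 to -1.32. The methods name no pairing by replicate number. Deviations from the group means correlated with r of -0.03 to 0.01 in same-numbered libraries and -0.03 to 0.05 in the others. This shows no strong shared effect but cannot exclude a weaker one. With the replicate number as a block, 0 of the 6 genes were called, as were 0 of all 8718 genes tested. Ighm then had a limma adjusted p of 0.293. The 4 gene pair differences stayed at 1.58, 1.57, 0.68 and 3.39 (exact sign-flip test, p = 0.25 for each, the smallest possible). Over all genes, quantile normalization moved the median log2 fold change from -0.06 to 0.03 and pseudocounts of 0.1 and 0.01 to -0.15 and -0.17. The number of libraries and the unknown read depth limit all of these comparisons.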

Other observations

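Some values were noticed only after the data were seen and are given as a description. Ighm was 26.2, 27.5 and 30.3 times Ms4a1 in the Con libraries and 21.4, 30.3 and 39.7 times in the Abx libraries, so the groups overlapped, while its ratio to Cd79b went from 0.938 to 2.28 in Con to 7.47 to 11.5 in Abx. Igkc was at 0.898, 1.65 and 1.37 times Ighm in Con and at 0.616, 1.02 and 0.682 times Ighm in Abx. Rag1, a recombinase gene of B and T cell precursors, measured 0.86, 0 and 0 FPKM in the Con libraries and 12.3, 0.99 and 7.80 FPKM in the Abx libraries, while Rag2, which works with it, was listed at 0 in all 6 libraries. Syk, a kinase that the CD79 tails recruit, was between 0.01 and 1.13 FPKM in all libraries, and Zap70, the related kinase of T and NK cells, averaged 86.8 ± 8.07 FPKM in the Con libraries and 61.3 ± 8.10 FPKM in the Abx libraries (SD, n = 3 each).

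Markers of the remaining cell types were as follows. Sums over 5 erythroid genes reached 6418 to 14820 FPKM in Con and 3166 to 8659 FPKM in Abx, and those over 10 fibroblast and pericyte genes stayed between 2.09 and 8.84 FPKM. Those over 6 mast cell and basophil genes were 328 to 434 FPKM in Con and 185 to 295 FPKM in Abx, over 6 epithelial genes 24.5 to 1150 and 55.7 to 142 FPKM, over 12 myeloid genes 141 to 412 and 176 to 369 FPKM, over 7 neutrophil genes 2.91 to 16.2 and 0 to 75.3 FPKM, and over 6 endothelial genes 5.10 to 10.8 and 6.14 to 21.1 FPKM.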
